A study of Danio rerio with 4 samples.

Results

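Retinoic acid is a small lipid signal made from vitamin A. Retinaldehyde dehydrogenases make it, Cyp26 enzymes of the cytochrome P450 family oxidise it to inactive forms, cytosolic binding proteins carry it through the cell, and nuclear retinoic acid receptors bound to DNA switch genes on when they bind it. In the gastrula and early somite embryo of the zebrafish it is made in the trunk mesoderm and broken down in the anterior neural plate, so that the hindbrain and trunk are exposed to it and the forebrain is kept free of it. Described here are 10 genes of this system, found by gene symbol in the array annotation and chosen with earlier results of these data known. They are the breakdown enzymes cyp26a1, cyp26b1 and cyp26c1, the retinaldehyde reductase dhrs3a, the synthesis enzyme aldh1a2, the binding protein genes crabp2a and crabp2b, and the receptor genes raraa, rarab and rarga. They are 10 of 8793 genes with a probe set of their own, and are read by 14 of the 15617 probe sets of the array. Of these 14, 12 had a signal over the floor on at least 1 array, and they cover 9 of the 10 genes.

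The arrays compared embryos that carry a transgene, en-pou5f3, with their wild-type siblings, all of strain RW, at 90% epiboly near the end of gastrulation and at 3-ss, the stage with 3 somites. The transgene joins the repressor domain of the fly protein Engrailed to Pou5f3, a POU transcription factor, under a heat shock promoter, and the fusion was built to interfere with endogenous Pou5f3 after heat shock. The transgenic parents were hemizygous and the embryos were genotyped one by one. Both genotypes were raised at 25°C, received the same heat shock of 60 min at 37°C and were collected 30 min later, so every value below is from heat-shocked embryos, and the stage named is that at heat shock. The en-pou5f3 embryos were themselves hemizygous. For each array 250 ng of RNA was taken, from 1 pool of whole embryos of 1 genotype and stage. With 1 array per condition there is no replicate and no test, and the differences below are those between 4 pools.

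All values are MAS5 signals on a linear scale or log2 ratios of them, with every signal below a floor of 32.4 raised to that floor. It was set at the 95th percentile of 20 untargeted control probe sets over the 4 arrays (80 signals). A gene counts as higher or lower at 2-fold, a log2 ratio of 1 in either direction. As a yardstick, probe sets of the same gene differed in their log2 genotype ratio with an SD of 0.27 at 90% epiboly (1006 genes) and of 0.34 at 3-ss (1031 genes), which holds no variation between embryos. Apart from brightness and sums of marker signals, signals of different probe sets are not compared with each other. Those sums are led by their brightest probe sets and do not measure the size of a region. The pou5f3 probe set read 8284 with en-pou5f3 and 5473 in wild-type embryos at 90% epiboly, and 2138 with en-pou5f3 and 1277 in wild-type embryos at 3-ss. No gene among 5 housekeeping genes passed 2-fold between the genotypes at either stage.

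At 90% epiboly en-pou5f3 induction was accompanied by lower signals of cyp26a1, dhrs3a and raraa and by higher signals of cyp26b1 and crabp2a. These are 5 of the 9 measured genes, or 55.6%, where 3.55% of all 11594 probe sets tested passed 2-fold in either direction (2.25% lower and 1.30% higher). The genes were chosen with earlier results of these data known, so the contrast is a description and was not tested. It also sets the brightest probe set of each gene against single probe sets. Both limits hold for the shares given below. At 3-ss none of the 9 genes passed 2-fold, where 3.73% of 11970 probe sets did (1.94% lower and 1.80% higher). The median log2 ratio of the 9 genes was -0.25 at 90% epiboly, against 0.03 over all probe sets, and -0.21 at 3-ss, against 0.01. The genes thus lay on both sides of no change at 90% epiboly, and their median says little about any one of them. These are whole-embryo pools, in which fewer cells that express a gene and less RNA per cell cannot be told apart.

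**Figure D1:**
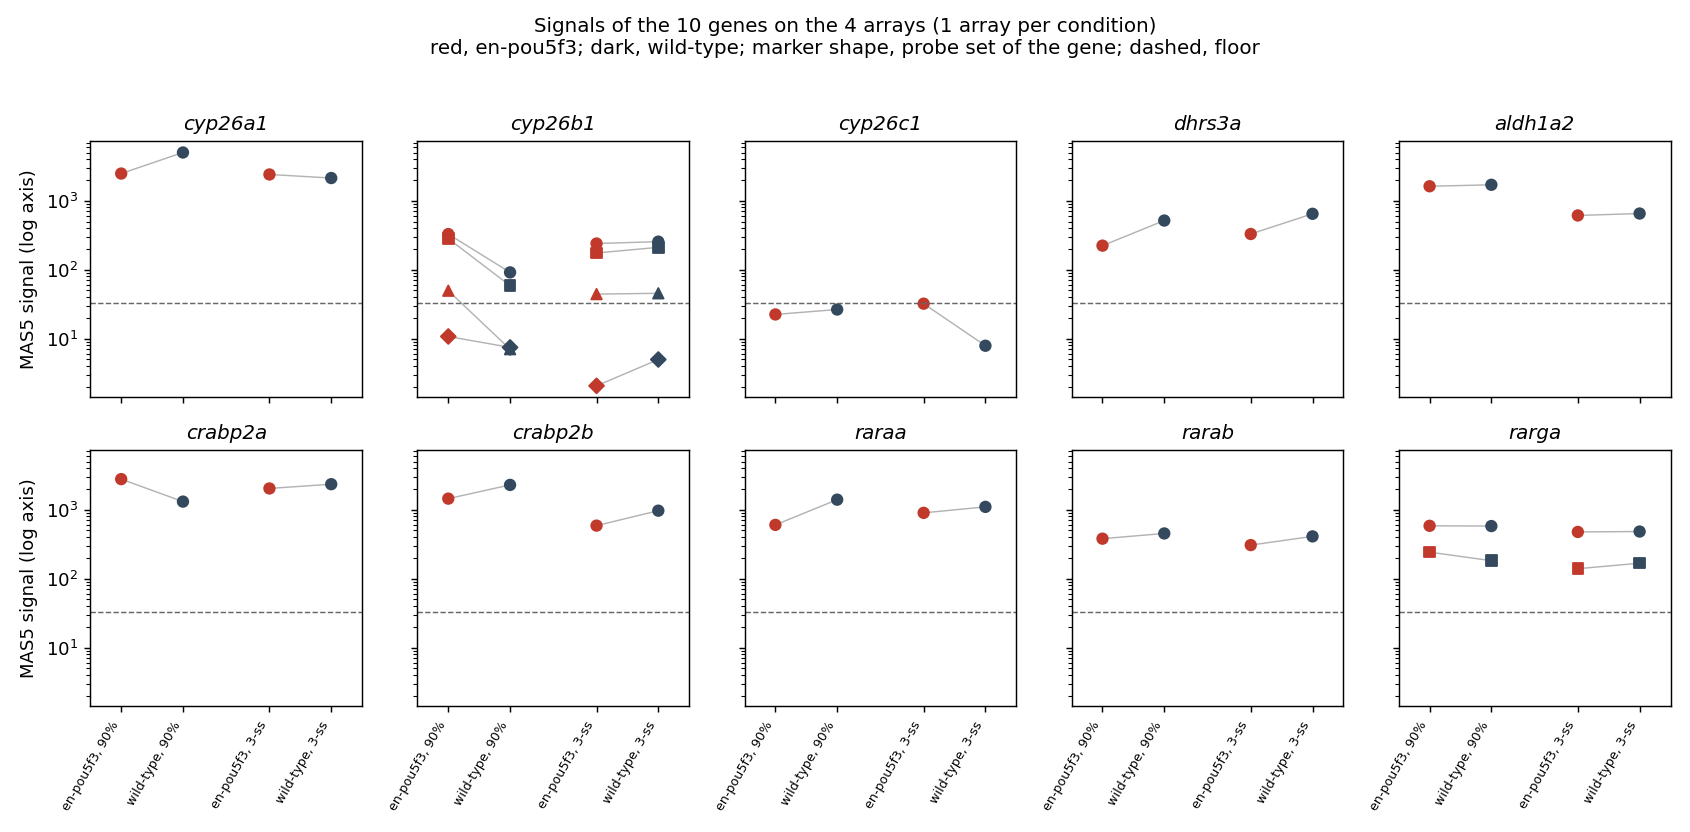
MAS5 signal (log axis) of each probe set of the 10 genes on the 4 arrays, with en-pou5f3 in red and wild-type in dark and 1 point per array; marker shapes are different probe sets of a gene, and the dashed line is the floor of 32.4. At 90% epiboly cyp26b1 and crabp2a are higher and cyp26a1, dhrs3a and raraa lower in en-pou5f3 embryos, while at 3-ss the pairs of cyp26a1, cyp26b1, crabp2a and raraa lie much closer together and that of dhrs3a only slightly so.

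Of the breakdown enzyme genes, cyp26a1 was lower and cyp26b1 higher with en-pou5f3 at 90% epiboly, and cyp26c1 stayed under the floor. cyp26a1 encodes the enzyme that clears retinoic acid from the anterior neural plate and the margin of the gastrula. Its signal was 2487 in en-pou5f3 and 5027 in wild-type embryos at 90% epiboly, and 2413 in en-pou5f3 and 2142 in wild-type embryos at 3-ss. The wild-type array at 90% epiboly therefore stood alone, and the other 3 lay close together. The gene was 2.02-fold lower with en-pou5f3 at 90% epiboly, just past the threshold (log2 ratio -1.02, the 254th lowest of 11594 probe sets), and its log2 ratio at 3-ss was 0.17.

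cyp26b1 encodes the related enzyme of the hindbrain rhombomeres, the segments of the early hindbrain. Its brightest probe set had a signal of 329 in en-pou5f3 and 91.5 in wild-type embryos at 90% epiboly, and of 240 in en-pou5f3 and 256 in wild-type embryos at 3-ss. Again the wild-type array at 90% epiboly stood alone, here as the lowest. The gene was 3.60-fold higher with en-pou5f3 at 90% epiboly, a log2 ratio of 1.85 and the 16th highest of 11594 probe sets. At 3-ss the log2 ratio was -0.09.

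The other cyp26b1 probe sets served as a check within the arrays. The second read 283 in en-pou5f3 and 58.8 in wild-type embryos at 90% epiboly, 4.81-fold higher, which was the 11th highest log2 ratio of all (2.27). At 3-ss it read 175 in en-pou5f3 and 211 in wild-type embryos, a log2 ratio of -0.27. The third was dim, with 49.6 in en-pou5f3 and 7.03 in wild-type embryos at 90% epiboly, so that only a bound of at least 1.53-fold higher can be given. At 3-ss it read 44.2 in en-pou5f3 and 45.5 in wild-type embryos. The fourth stayed under the floor on all 4 arrays. The 3 readable probe sets thus had the same order of arrays at 90% epiboly and nearly equal signals between the genotypes at 3-ss. Among probe sets of similar brightness to the first 2, 4.73% passed 2-fold in either direction at 90% epiboly.

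cyp26c1 encodes the third enzyme of the family, also known from the anterior hindbrain. Its single probe set read 22.4 in en-pou5f3 and 26.5 in wild-type embryos at 90% epiboly, and 32.2 in en-pou5f3 and 7.88 in wild-type embryos at 3-ss. All 4 signals lay under the floor, so no fold is given.

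dhrs3a encodes a short-chain reductase that turns retinaldehyde back into retinol and so takes the substrate away from synthesis. The signal was 224 in en-pou5f3 and 517 in wild-type embryos at 90% epiboly, and 330 in en-pou5f3 and 648 in wild-type embryos at 3-ss. The en-pou5f3 arrays were the lower ones at both stages. The gene was 2.31-fold lower at 90% epiboly (log2 ratio -1.21). At 3-ss it was 1.96-fold lower, a log2 ratio of -0.97 that fell just short of the threshold and was the 253rd lowest of 11970. Among the 9 measured genes dhrs3a had the lowest log2 ratio at 3-ss.

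aldh1a2 encodes the retinaldehyde dehydrogenase that makes retinoic acid in the paraxial mesoderm. Its signal was 1626 in en-pou5f3 and 1709 in wild-type embryos at 90% epiboly, and 613 in en-pou5f3 and 654 in wild-type embryos at 3-ss. The arrays divided by stage and hardly by genotype. The log2 genotype ratios were -0.07 and -0.09 at 90% epiboly and 3-ss, smaller than the SD between probe sets of a gene.

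The 2 Crabp2 genes encode cytosolic proteins that bind retinoic acid and, in mammals, hand it to the receptors. crabp2a had a signal of 2781 in en-pou5f3 and 1311 in wild-type embryos at 90% epiboly, and of 2036 in en-pou5f3 and 2347 in wild-type embryos at 3-ss. As for cyp26b1, the wild-type array at 90% epiboly was the lowest and the other 3 were near each other. The gene was 2.12-fold higher with en-pou5f3 at 90% epiboly (log2 ratio 1.08, the 123rd highest), and its log2 ratio at 3-ss was -0.21.

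Its paralogue crabp2b showed another pattern. The signal was 1449 in en-pou5f3 and 2291 in wild-type embryos at 90% epiboly, and 588 in en-pou5f3 and 969 in wild-type embryos at 3-ss. The en-pou5f3 array was lower than the wild-type array at both stages by nearly the same ratio, with log2 ratios of -0.66 at 90% epiboly and -0.72 at 3-ss, neither of them 2-fold.

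The receptor genes encode nuclear receptors that bind DNA together with retinoid X receptors. raraa read 603 in en-pou5f3 and 1400 in wild-type embryos at 90% epiboly, and 901 in en-pou5f3 and 1100 in wild-type embryos at 3-ss. It was 2.32-fold lower at 90% epiboly (log2 ratio -1.22, the 178th lowest of 11594), and the log2 ratio at 3-ss was -0.29. The lowest of the 4 arrays was en-pou5f3 at 90% epiboly.

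Its paralogue rarab read 380 in en-pou5f3 and 452 in wild-type embryos at 90% epiboly, and 307 in en-pou5f3 and 410 in wild-type embryos at 3-ss. The log2 genotype ratios were -0.25 and -0.42 at the 2 stages, and the highest signal was 1.47-fold the lowest. The brightest rarga probe set was the steadiest of all, with 584 in en-pou5f3 and 579 in wild-type embryos at 90% epiboly, and 476 in en-pou5f3 and 483 in wild-type embryos at 3-ss. A second rarga probe set, of a type whose probes can match several transcripts, had log2 ratios of 0.41 and -0.27. Neither gene came near 2-fold in either genotype comparison.

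**Figure D2:**
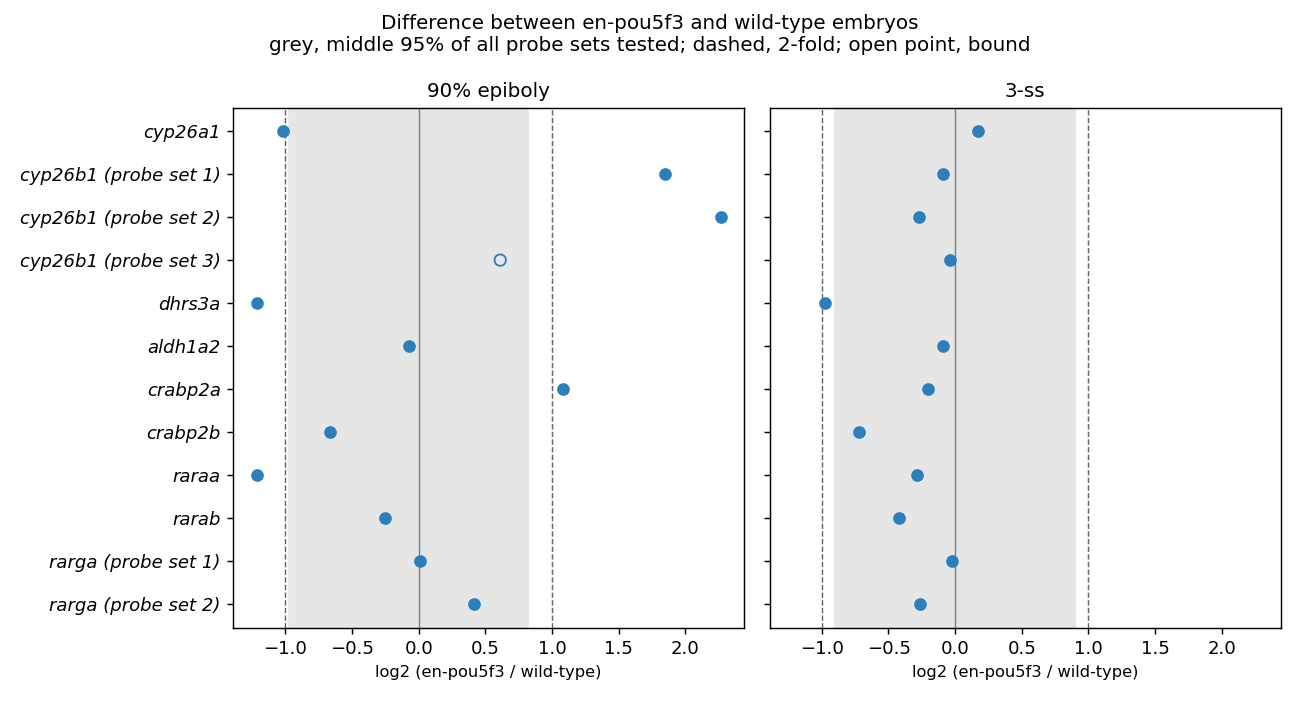
Log2 ratio of the en-pou5f3 over the wild-type signal at 90% epiboly (left) and 3-ss (right), 1 row per probe set over the floor; grey marks the middle 95% of all probe sets tested, the dashed lines 2-fold, and the open point a bound. At 90% epiboly the 2 brighter cyp26b1 probe sets (1.85 and 2.27) and crabp2a (1.08) lie right of the grey and cyp26a1, dhrs3a and raraa (-1.02 to -1.22) left of it, whereas at 3-ss dhrs3a (-0.97) alone lies outside it.

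Whether the genotype ratio itself differed between the stages was read from the difference of the 2 log2 ratios, 3-ss minus 90% epiboly, which rests on all 4 arrays and has no test. It passed 2-fold for 3 of the 9 genes, where 5.48% of 11128 probe sets did (2.54% lower and 2.94% higher). It was 1.19 for cyp26a1, -1.94 for cyp26b1 (-2.54 for its second probe set) and -1.29 for crabp2a. The cyp26b1 probe sets were the 24th and 7th lowest of all. For raraa the difference was 0.93, under 2-fold. For the brightest probe sets of the other 5 measured genes it lay between -0.17 and 0.24, and for the second rarga probe set it was -0.68. Probe sets of the same gene had an SD of 0.45 in this difference. Of the 5 genes past 2-fold at 90% epiboly, dhrs3a thus kept most of its genotype ratio at 3-ss, and the log2 ratios of the other 4 lay between -0.29 and 0.17 there.

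The same arrays show the course of each gene from 90% epiboly to 3-ss. In en-pou5f3 embryos aldh1a2 and crabp2b fell between the stages, by 1.41 and 1.30 on the log2 scale, and no gene rose. These are 2 of 9 measured genes, where 10.8% of 12010 probe sets passed 2-fold (3.17% lower and 7.67% higher). The log2 change of cyp26a1 was -0.04, that of cyp26b1 -0.46 in the brightest and -0.69 in the second probe set, and that of crabp2a -0.45. Those of raraa and dhrs3a were 0.58 and 0.56, and those of rarab and rarga -0.31 and -0.30 (-0.80 for the second rarga probe set).

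In wild-type embryos aldh1a2 and crabp2b fell as well, by 1.39 and 1.24 on the log2 scale, cyp26a1 fell by 1.23, and cyp26b1 rose 2.79-fold. These are 4 of 9, where 12.0% of 11815 probe sets passed 2-fold (3.97% lower and 8.00% higher). The second cyp26b1 probe set was 3.59-fold higher at 3-ss. crabp2a had a log2 ratio of 0.84, raraa of -0.35, dhrs3a of 0.33, rarga of -0.26 and rarab of -0.14. The synthesis enzyme gene aldh1a2 and the binding protein gene crabp2b therefore had nearly the same stage ratio in both genotypes, whereas cyp26a1 and cyp26b1 passed 2-fold between the stages in wild-type embryos alone. The gap between the stage ratios of a gene is the same quantity as the difference of genotype ratios above and was not tested.

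**Figure D3:**
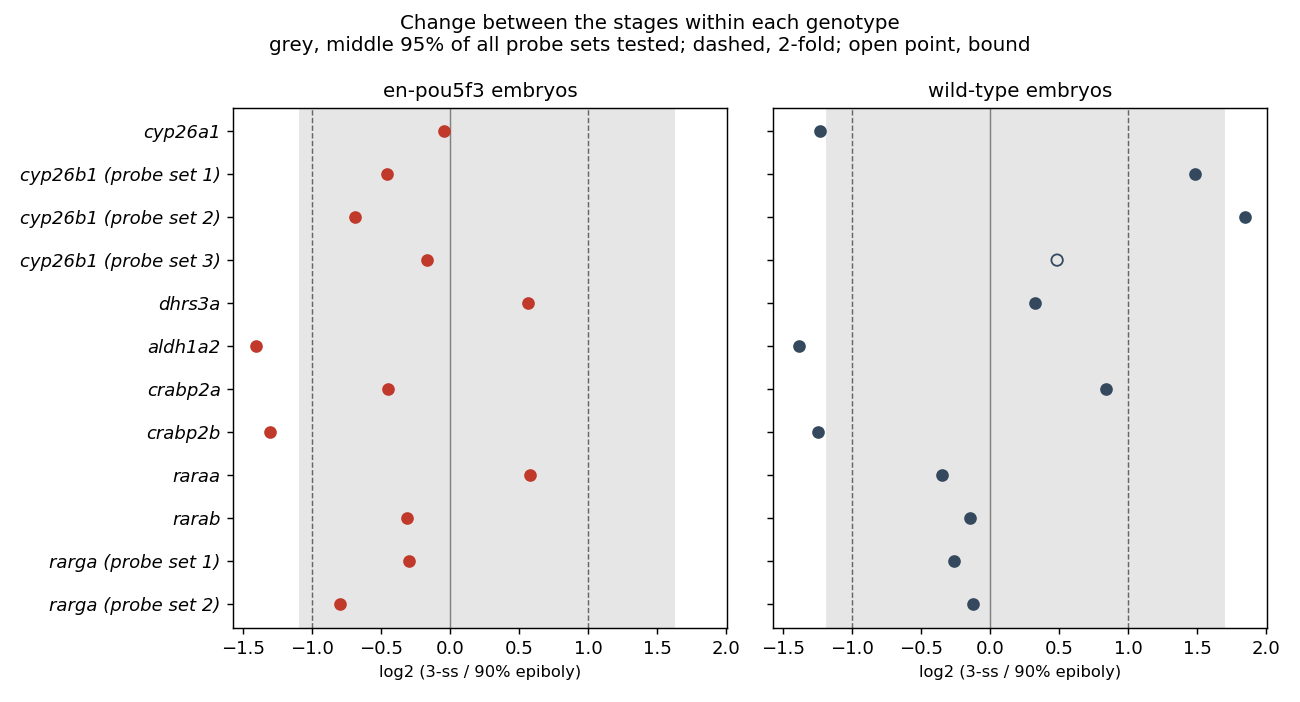
Log2 ratio of the 3-ss over the 90% epiboly signal in en-pou5f3 embryos (left) and wild-type embryos (right), 1 row per probe set over the floor; grey marks the middle 95% of all probe sets tested, the dashed lines 2-fold, and the open point a bound. aldh1a2 (-1.41 and -1.39) and crabp2b (-1.30 and -1.24) sit at nearly the same place in both panels, while cyp26a1 (-0.04 and -1.23) and the brightest cyp26b1 probe set (-0.46 and 1.48) do not.

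For several genes the en-pou5f3 array at 90% epiboly lay within 2-fold of the wild-type array of the later stage, as did most probe sets of the array. Set against wild-type embryos at 3-ss, the signal of en-pou5f3 embryos at 90% epiboly was 1.16-fold higher for cyp26a1, 1.29-fold and 1.34-fold higher for the 2 brighter cyp26b1 probe sets and 1.19-fold higher for crabp2a. Over the 9 genes 2 passed 2-fold in this comparison, where 11.7% of 11834 probe sets did (7.86% lower and 3.79% higher). They were dhrs3a, 2.90-fold lower, and aldh1a2, 2.49-fold higher. The signal of raraa was 1.83-fold lower. This comparison changes genotype and stage at once and uses the arrays of the comparisons above, so it adds no independent values.

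Most of the other measured genes of the pathway stayed within 2-fold between the genotypes, as did most probe sets of the array. Of 41 listed genes for uptake, synthesis, binding, receptors and coregulators, 18 had a probe set with 1 gene name and 14 had a signal over the floor. At 90% epiboly 1 of 13 measured was lower and none was higher, where 2.25% of all probe sets were lower and 1.30% higher. The median log2 ratio was -0.01 against 0.03 over all probe sets. Of 14 measured at 3-ss none passed 2-fold, where 3.73% of all probe sets did, and the median was 0.05. The gene that passed was aldh8a1, an aldehyde dehydrogenase that in mammals can act on retinaldehyde. Its signal was 53.5 in en-pou5f3 and 172 in wild-type embryos at 90% epiboly, 3.21-fold lower, and 322 in en-pou5f3 and 310 in wild-type embryos at 3-ss. The en-pou5f3 array at 90% epiboly was the lowest of the 4, as for raraa.

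Among the genes of uptake and transport, rbp2a, which encodes a cellular retinol-binding protein, had log2 genotype ratios of 0.95 and 0.44 at the 2 stages. rbp4, which encodes the retinol carrier of plasma, rose between the stages in both genotypes, by 2.25 on the log2 scale in en-pou5f3 and by 2.19 in wild-type embryos. Its genotype ratios were -0.31 and -0.25. The retinol dehydrogenase gene rdh10b, whose enzyme makes the retinaldehyde that Aldh1a2 uses, had -0.18 and -0.15. The retinoid X receptor genes were dim. Of 4 with a probe set, rxrab stayed under the floor, and the highest signal of rxrba, rxrbb and rxrga on any array was 160.

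Genes known to respond to retinoic acid in vertebrate embryos were taken as a list of 31, of which 23 had a probe set and 22 a signal over the floor. At 90% epiboly 0 of 20 measured genes passed 2-fold in either direction, where 3.55% of all probe sets did. The median log2 ratio was -0.21, against 0.03 over all probe sets, and 13 of the 20 lay below 0, where 45.4% of all probe sets did. Of 22 measured at 3-ss, 1 was higher and none lower, where 1.80% of all probe sets were higher and 1.94% lower. There the median was -0.46 against 0.01, and 18 of the 22 lay below 0, where 48.6% of all probe sets did. The 1 that passed was tgm2b, which encodes a transglutaminase, with 65.7 in en-pou5f3 and 18.6 in wild-type embryos, a bound of at least 2.03-fold higher.

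In this list the lowest log2 ratios at 90% epiboly were those of meis2b (-0.99), cdx4 (-0.91) and meis3 (-0.79), all of them genes for homeodomain transcription factors. At 3-ss cdx4 had -0.93, nr2f5, an orphan nuclear receptor gene, -0.86, hoxb5b -0.80 and meis3 -0.78. The rhombomere gene hoxb1a had -0.03 and 0.20 at the 2 stages. Several of these genes rose between the stages in both genotypes. In en-pou5f3 embryos 10 of 22 were higher and 1 lower at 3-ss, where 7.67% of all probe sets were higher, and in wild-type embryos 14 of 21 were higher and 1 lower, where 8.00% of all probe sets were higher.

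The regions where the members are made were followed through marker genes, whose part in the results above was not tested. Of 8 measured markers of the anterior neural plate, where cyp26a1 is made, 6 were lower and 0 higher at each stage. Their summed signal was 3684 in en-pou5f3 and 8835 in wild-type embryos at 90% epiboly, and 1891 in en-pou5f3 and 5482 in wild-type embryos at 3-ss. otx2b was not among the lower ones. It read 1991 in en-pou5f3 and 1737 in wild-type embryos at 90% epiboly, a log2 ratio of 0.20. That was the largest signal in the en-pou5f3 sum at this stage. At 3-ss its log2 ratio was -0.58. hesx1 was under the floor in en-pou5f3 embryos at both stages. Most of these markers were thus lower at both stages, while cyp26a1 was lower at 90% epiboly alone.

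Of 4 measured markers of the tail bud and margin, where cyp26a1 is also made, 2 (tbxta and fgf8a) were lower at 90% epiboly. At 3-ss 1 (fgf8a) was lower, and none was higher at either stage. Over all probe sets 2.25% were lower at 90% epiboly and 1.94% at 3-ss. All 4 log2 ratios were below 0 at both stages, where 45.4% and 48.6% of all probe sets were. The summed signal of these markers was 7238 in en-pou5f3 and 14272 in wild-type embryos at 90% epiboly, and 4696 in en-pou5f3 and 8779 in wild-type embryos at 3-ss. Most of each sum came from cdx4, with 5894.5 in en-pou5f3 and 11064 in wild-type embryos at 90% epiboly. At 3-ss cdx4 read 3794 in en-pou5f3 and 7229 in wild-type embryos. Its log2 ratios were -0.91 and -0.93, short of 2-fold. This gene is also in the list of retinoic acid targets, and none of the 4 was under the floor on any array. tbxta, which encodes the T-box factor of the margin and notochord, read 700 in en-pou5f3 and 1476 in wild-type embryos at 90% epiboly, and 604 in en-pou5f3 and 702 in wild-type embryos at 3-ss. Its log2 ratios of -1.08 and -0.22 lay, like those of cyp26a1, past 2-fold at 90% epiboly alone, whereas fgf8a, an FGF ligand gene, had -2.32 and -2.29. The paper counts fgf8a among genes that specify the midbrain-hindbrain boundary, so its signal is not of the tail bud and margin alone.

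Of 4 measured markers of rhombomeres, where cyp26b1 is made, egr2b and gbx2 were higher and fgf3 lower at 90% epiboly. Of 3 measured at 3-ss none passed 2-fold. Over all probe sets 1.30% were higher and 2.25% lower at 90% epiboly, and 3.73% passed 2-fold at 3-ss. The summed signal of these markers was 2320 in en-pou5f3 and 785 in wild-type embryos at 90% epiboly, and 1752 in en-pou5f3 and 2355 in wild-type embryos at 3-ss. At 90% epiboly gbx2 gave 1220.5 of this sum in en-pou5f3 embryos and 205 in wild-type embryos. The paper places gbx2 among genes of midbrain-hindbrain boundary and hindbrain development, so the sum is not of rhombomeres alone. egr2b read 700 in en-pou5f3 and 123 in wild-type embryos at 90% epiboly, and 671 in en-pou5f3 and 929 in wild-type embryos at 3-ss. Like the brighter cyp26b1 probe sets, it was higher in en-pou5f3 embryos at 90% epiboly. At 3-ss its log2 ratio was -0.47. Those of the cyp26b1 probe sets there, -0.09 and -0.27, were smaller than the SD between probe sets of a gene. The remaining marker, epha4a, was not higher with en-pou5f3 at 90% epiboly. Its brightest probe set read 380 in en-pou5f3 and 389 in wild-type embryos at 90% epiboly, a log2 ratio of -0.04. At 3-ss its log2 ratio was -0.62. fgf3 was over the floor in wild-type embryos at 90% epiboly alone.

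Of 9 measured markers of presomitic and somitic mesoderm, where aldh1a2 is made, 4 were lower and 0 higher at 90% epiboly and 2 were lower and 0 higher at 3-ss. Their summed signal was 20342 in en-pou5f3 and 18239 in wild-type embryos at 90% epiboly, and 16557 in en-pou5f3 and 16296 in wild-type embryos at 3-ss. The 4 lower ones at 90% epiboly were her7, myod1, myf5 and pcdh8. The count of 0 higher rests on the brightest probe set of each gene. For tbx16 that probe set had a log2 ratio of 0.43 at 90% epiboly. A second tbx16 probe set, not counted, read 3248 in en-pou5f3 and 1102 in wild-type embryos there, 2.95-fold higher. tbx6 read 1861 in en-pou5f3 and 943 in wild-type embryos, a log2 ratio of 0.98, just short of 2-fold. msgn1, a regulator of presomitic mesoderm, had log2 ratios of 0.19 and 0.02. It gave most of each sum above, with 12955.5 in en-pou5f3 and 11362 in wild-type embryos at 90% epiboly. At 3-ss it read 12655 in en-pou5f3 and 12524 in wild-type embryos. Of the 9 log2 ratios, 6 lay below 0 at each stage. None of these 9 markers was under the floor on any array. Between the stages 4 of the 9 fell and 1 rose in en-pou5f3 embryos, where 3.17% of all probe sets fell and 7.67% rose. In wild-type embryos 5 fell and none rose, where 3.97% of all probe sets fell and 8.00% rose. The 1 that rose was pcdh8, a protocadherin gene of the presomitic mesoderm, with 85.4 at 3-ss and 42.1 at 90% epiboly in en-pou5f3 embryos, 2.03-fold higher.

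**Figure D4:**
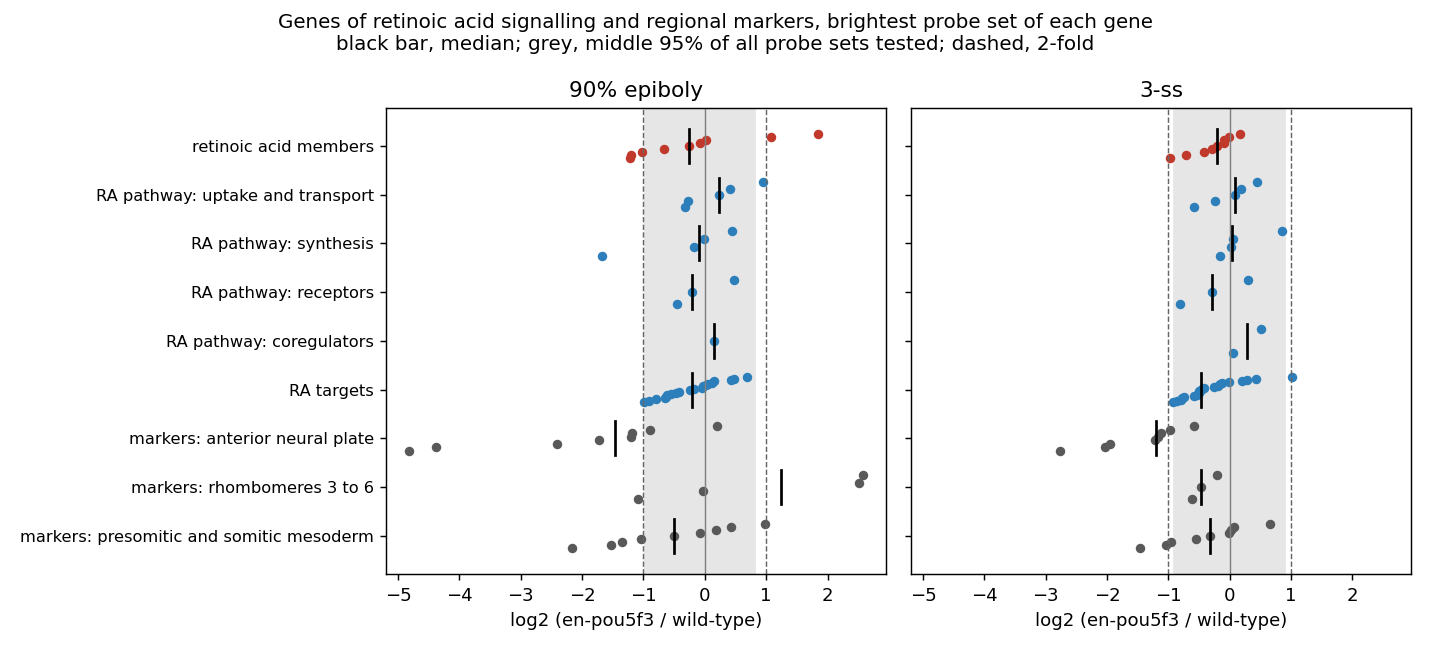
Log2 ratio of the en-pou5f3 over the wild-type signal at 90% epiboly (left) and 3-ss (right) for the brightest probe set of each gene, with the 9 measured genes of the system in red, other pathway and target genes in blue and regional markers in grey; black bars are medians, the grey area the middle 95% of all probe sets tested and dashed lines 2-fold, and values with 1 signal under the floor are bounds. The pathway and target genes lie within 2-fold except aldh8a1 (-1.68) at 90% epiboly and tgm2b at 3-ss, while anterior neural plate markers spread to the left at both stages.

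The genes whose signals followed those of the members most closely were sought over the 4 arrays, by the smallest root mean square difference of mean-centred log2 signals among the named probe sets that exceeded the floor on each array (7297, or 7296 for cyp26b1). With 4 arrays and so many genes, many close profiles can occur, and they are given as a description. Nearest to cyp26a1 were orai1a (0.09), zic2b (0.09) and znf1065 (0.11). zic2b, a zinc finger gene of the dorsal neural plate, read 2993 in en-pou5f3 and 6268 in wild-type embryos at 90% epiboly, and 2670 in en-pou5f3 and 2263 in wild-type embryos at 3-ss. Nearest to crabp2a were lmo3 (0.06), fam117ab (0.07) and ccdc142 (0.08).

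Nearest to cyp26b1 were ca2 (0.17), id2b (0.25) and pdgfaa (0.26), so that no other named gene came as close as for the remaining members. The carbonic anhydrase gene ca2 read 1404 in en-pou5f3 and 547 in wild-type embryos at 90% epiboly, and 1217 in en-pou5f3 and 1339 in wild-type embryos at 3-ss. Nearest to dhrs3a were fam83hb (0.05), hoxc8a (0.06) and cldn23.1 (0.10). hoxc8a, a Hox gene of the trunk, read 989 in en-pou5f3 and 2390 in wild-type embryos at 90% epiboly, and 1468 in en-pou5f3 and 2690 in wild-type embryos at 3-ss. Nearest to raraa were b3gnt7l (0.06), krt91 (0.07) and meis2b (0.11), the last of which is also in the list of retinoic acid targets above.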

How the data were processed

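RNA of heat-shocked en-pou5f3 and wild-type embryos at 90% epiboly and 3-ss was measured on 4 Affymetrix GeneChip Zebrafish Genome Arrays, 1 per condition. The authors made the deposited intensity values from the scans with MAS5 (version not given in the sources used here), a background-corrected and scaled signal per probe set on a linear scale; the mean of each array, trimmed by 2% at either end, was about 500.1. Detection and change calls were not used here. The supplementary methods mention more arrays than these 4, and the supplementary tables head the columns by heat shock rather than genotype. The labels were followed in both points.

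From the signals, with Python 3.11.15, numpy 2.4.6, pandas 2.3.3 and matplotlib 3.10.9, 115 control probe sets were removed and 15502 kept. Signals below the floor of 32.4 were raised to it, and log2 ratios were taken where at least 1 of the 2 arrays reached it. A fold with 1 signal below the floor is a bound. Of all 15617 probe sets, controls included, 10802 have 1 gene symbol in the annotation, 135 have several and 4680 are unnamed here. Apart from controls, those with several or no symbol were not read as genes but count in the shares and ranks over all probe sets. A gene is represented in counts by its brightest probe set. The number of arrays limits the precision. The calculation was run on simulated signals, with changes larger than most of those called here and in bright probe sets only. That run checks the arithmetic and not the differences reported here.

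All members are named with every probe set, as are pathway and target genes past 2-fold between the genotypes and the 3 closest profiles of each member past 2-fold. Other named genes were picked after their values were seen. Members and lists were chosen with earlier results of these data known, and the comparison of en-pou5f3 embryos at 90% epiboly with wild-type embryos at 3-ss was added after the values were seen. Alternatives were other floors, scalings, filters, thresholds and ways to choose a probe set.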

Additional observations from a re-analysis of the deposited data

Results flagged for a closer look

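For 3 genes the en-pou5f3 array lay on opposite sides of the wild-type array at the 2 stages, with genotype log2 ratios that differ by 2-fold or more. The difference, 3-ss minus 90% epiboly, was 1.19 for cyp26a1, -1.94 for cyp26b1 and -1.29 for crabp2a, and it was not tested, since each condition has 1 array. In all 3 the ratio at 3-ss was small (0.17, -0.09 and -0.21), under the SD of 0.34 between probe sets of a gene. The side on which the en-pou5f3 array lay at 3-ss can therefore not be read.

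Outside the genes studied, 1 control probe set of the manufacturer, which the annotation does not name, had signals far over the floor. It read 5531 in en-pou5f3 and 110 in wild-type embryos at 90% epiboly, and 14534 in en-pou5f3 and 1670 in wild-type embryos at 3-ss. The wild-type signal was 1.98% of the en-pou5f3 signal at 90% epiboly and 11.5% at 3-ss. What these signals mean for the genotype comparisons was not tested.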

How the results depend on the processing

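No paired analysis was possible because each condition has 1 array, and for the same reason no array could be left out. Of 99 counts recomputed under the alternatives, 89 stayed within 1.5 times the reported count. With a 3-fold threshold, 0 genes were lower and 1 (cyp26b1) was higher with en-pou5f3 at 90% epiboly, 0 fell between the stages in either genotype, 0 rose in wild-type embryos, and 1 (cyp26b1) differed between the stages in its genotype ratio. With a 1.5-fold threshold, 2 genes (dhrs3a and crabp2b) were lower with en-pou5f3 at 3-ss and 2 (cyp26b1 and crabp2a) rose in wild-type embryos. Without the floor, or with a floor of 6.45, the median control signal, 1 gene was higher at 3-ss. This was cyp26c1, whose 4 signals all lie under the main floor. No log2 ratio past 2-fold changed sign under any alternative. Of 324 log2 ratios recomputed, 4 moved by more than the SD between probe sets: cyp26b1 at 90% epiboly was 1.54 with the floor added to every signal and 2.27 in its most changed probe set, and the most changed rarga probe set gave 0.41 at 90% epiboly and -0.80 between the stages in en-pou5f3 embryos. Many of the 324 could not move. The brightest probe sets of the measured genes were over the floor on all 4 arrays. A lower floor, or a filter on both arrays, therefore left their ratios unchanged. Leaving out probe sets with shared probes did so too. Other ways to choose a probe set could change cyp26b1 and rarga alone. The same holds for the counts of these genes. Quantile normalization changed the split of all probe sets between the stages in en-pou5f3 embryos to 750 higher and 521 lower, against 921 higher and 381 lower without it. Signals near the floor, such as those of cyp26c1 and the third cyp26b1 probe set, cannot show differences of this size.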
